A study of Saccharomyces cerevisiae with 10 samples.

Results

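HIS1 to HIS7 are the 7 budding yeast (Saccharomyces cerevisiae) genes whose enzymes build histidine. They were taken by their symbols from the probe set annotation, and each was read by 1 probe set. They are 7 of the 5449 genes tested, and each lay above the background limit on all 10 arrays.

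The study asked how expression differs between yeast that lack SUA5 and wild-type yeast, soon and long after spores of a heterozygous diploid germinated. Sua5 takes part in making the modified tRNA base threonylcarbamoyladenosine and has been linked to telomere upkeep. The first group, sua5D at the 12th restreaking, had 3 arrays and is labelled as 300 generations after sporulation. The second, sua5D at the first restreaking, had 4 arrays and is labelled as 35 generations. Both are dissected spores of the diploid BY4743 with mating type a (MAT a), carrying the deletion of SUA5. They were set against the haploid BY4742, with 3 arrays, a strain of mating type alpha by its name. All cultures grew in rich liquid medium (YPD) to mid-log phase, and per the design text the samples within a group were independent clones. The p-values below measure only the spread between these arrays, whose number limits the precision of every value. Each array averages a whole culture, so a change in a share of the cells and a change in every cell cannot be told apart.

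Histidine is made from phosphoribosyl pyrophosphate (PRPP) and ATP in a linear pathway. A by-product, AICAR, returns to purine synthesis, which ties the pathway to the ADE genes. In this yeast the HIS genes are known targets of the general amino acid control, in which the kinase Gcn2 senses uncharged tRNA and the translation of the activator Gcn4 rises. Bas1 and Pho2 act on some HIS genes and on the ADE genes.

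SUA5 read 5.22, 4.93 and 2.18 on the 12th-restreaking arrays and 0.342, 5.10, 3.17 and 1.20 on the first-restreaking arrays, against 506, 522 and 532 in wild type (linear intensity, arbitrary units). The deletion arrays lay under the background limits of 10.8 to 17.5. In both wild-type comparisons all 7 markers of mating type a were higher and all 4 of mating type alpha were lower. STE2, the receptor of a cells, averaged 1816 ± 86.6 (SD, n = 3) at the 12th and 1948 ± 172 (n = 4) at the first restreaking, against 64.1 ± 6.39 (n = 3) in wild type. Mating type and the deletion therefore cannot be told apart in any comparison with wild type. The first-restreaking arrays also stood apart in pairs. LYS2, a lysine synthesis gene, read 53.7, 29.3 and 10.8 at the 12th restreaking, 15.6 and 9.34 on first-restreaking replicates 1 and 2, and 2953 and 2890.0 on replicates 3 and 4, against 11.1, 17.4 and 10.9 in wild type. MET17, a methionine synthesis gene, read 96.9, 30.6 and 8.09 at the 12th restreaking, at most 15.3 on first-restreaking replicates 1 and 2, and 4898 and 4662 on replicates 3 and 4, against 4192, 4176 and 4381 in wild type. The first-restreaking pairs thus differed in both genes, while wild type was low for LYS2 and high for MET17. The 12th-restreaking arrays were low for both, as first-restreaking replicates 1 and 2 were. Every deletion array thus differed from wild type in MET17 or LYS2. The comparisons with wild type carry that difference beside mating type and the deletion. The comparison of the 12th with the first restreaking mixes restreaking with the split between the pairs. None of the 7 HIS genes showed such a split, and against wild type the same 5 of them passed the test with either pair alone.

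HIS2, HIS3, HIS4 and HIS5 were higher and HIS6 was lower in both deletion groups than in wild type, while HIS1 and HIS7 did not pass the test. The largest of these changes was that of HIS3, 2.56-fold at the 12th and 2.53-fold at the first restreaking, and the second was that of HIS2, 2.06-fold and 2.04-fold. A gene passed if its adjusted p in limma was under 0.05 (Benjamini-Hochberg over 5449 genes, 10 arrays in 1 fit, log2 of intensity plus 16). At the 12th restreaking 77.8% of all genes passed, 40.9% higher and 36.9% lower. At the first restreaking 79.0% passed, 41.5% higher and 37.5% lower. With 5 of 7 genes called, the count for the pathway was near the background, and it is the sizes and directions that describe it. The 2 comparisons share the wild-type arrays, so their values are set side by side and the likeness between them is no second observation.

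**Figure D1:**
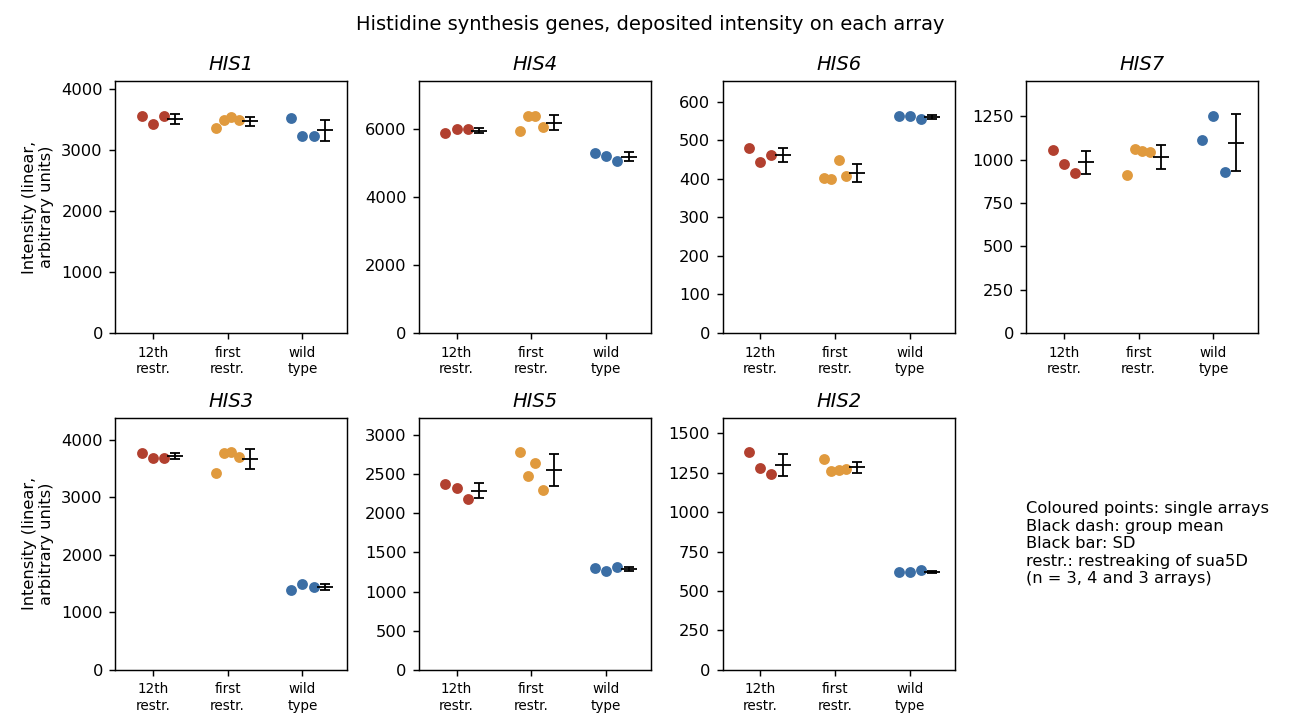
Deposited intensity (linear, arbitrary units) of HIS1 to HIS7 on every array, in the order of the pathway, with the mean and SD of each group: 12th restreaking (n = 3), first restreaking (n = 4) and wild type (n = 3). All 7 deletion arrays lie above all wild-type arrays for HIS4, HIS3, HIS5 and HIS2 and below them for HIS6, and the groups overlap for HIS1 and HIS7.

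HIS1 (YER055C) encodes ATP phosphoribosyltransferase, the first and feedback-inhibited enzyme. It read 3563, 3427 and 3567 at the 12th restreaking and 3366, 3495, 3546 and 3502 at the first, against 3528, 3236 and 3229 in wild type. One wild-type array lay among the deletion arrays, so the groups overlapped. The ratio to wild type was 1.06 (95% interval 0.992 to 1.13, limma adjusted p = 0.101) at the 12th and 1.04 (0.984 to 1.11, adjusted p = 0.161) at the first restreaking. Its call depended on the scaling and on 1 array. Without wild-type replicate 1 the log2 change was 0.12 (adjusted p = 0.0189) at the 12th and 0.10 (adjusted p = 0.03) at the first restreaking. With array medians set equal it was -0.04 and -0.05, neither called.

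HIS4 (YCL030C) encodes a multifunctional enzyme that carries out early steps and the last one. It read 5876, 6003 and 5991 at the 12th restreaking and 5939, 6390.1, 6382 and 6055 at the first, against 5309, 5215 and 5054 in wild type. Every deletion array was above every wild-type array, by a modest margin. HIS4 was 1.15-fold higher at the 12th restreaking (log2 change 0.20 ± 0.0378 SE, limma adjusted p = 0.000277) and 1.19-fold higher at the first (0.25 ± 0.0354 SE, adjusted p = 1.46e-05). About 39.0% of all genes had a larger log2 change at the 12th and 36.8% at the first restreaking. With array medians set equal the change at the 12th restreaking was no longer called (log2 change 0.08, adjusted p = 0.118), whereas quantile normalization gave larger changes, 0.41 at the 12th (adjusted p = 2.3e-08) and 0.39 at the first restreaking (1.58e-08).

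HIS6 (YIL020C), the isomerase that follows the early steps, was the gene of the pathway that fell. It read 479, 443 and 460.4 at the 12th restreaking and 403, 399, 449.8 and 407 at the first, against 563, 563 and 555 in wild type. The wild-type arrays lay above all deletion arrays and close together, with an SD of 0.0112 on the log2 scale. HIS6 was 1.21-fold lower at the 12th restreaking (log2 change -0.27 ± 0.0591 SE, limma adjusted p = 0.000731) and 1.34-fold lower at the first (-0.42 ± 0.0553 SE, adjusted p = 7.74e-06). A share of 27.8% of all genes had a lower log2 change at the 12th and 18.5% at the first restreaking, so a fall of this size was common.

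HIS7 (YBR248C) encodes imidazole glycerol phosphate synthase, the step that releases AICAR. It read 1057, 973 and 921 at the 12th restreaking and 911, 1061, 1048 and 1042 at the first, against 1112, 1253 and 927 in wild type. Wild-type replicate 3 lay among the deletion arrays, and the wild-type spread of HIS7, an SD of 0.216 on the log2 scale, was the widest of the 7 genes in any group. The ratio was 0.903 (95% interval 0.785 to 1.04, limma adjusted p = 0.166) at the 12th and 0.932 (0.817 to 1.06, adjusted p = 0.295) at the first restreaking. Without wild-type replicate 3 the log2 change was -0.26 (adjusted p = 0.0107) and -0.22 (adjusted p = 0.0212), and with array medians set equal it was -0.26 (adjusted p = 0.0268) and -0.22 (adjusted p = 0.0455).

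HIS3 (YOR202W) encodes the dehydratase that comes next. Its level needs the strains' genetics, because laboratory strains of the BY family, BY4742 and BY4743 among them, are known to carry a partial deletion of HIS3, and the labels used here do not give the HIS3 allele. HIS3 read 3769, 3672 and 3681 at the 12th restreaking and 3414, 3762, 3775 and 3691 at the first, against 1386, 1483 and 1443 in wild type. The deletion arrays clustered far above the wild type, and wild type itself was far above the background limits. HIS3 was 2.56-fold higher at the 12th restreaking (log2 change 1.36 ± 0.0454 SE, limma adjusted p = 8.98e-12) and 2.53-fold higher at the first (1.34 ± 0.0425 SE, adjusted p = 4.16e-12). Only 5.76% of all genes had a larger log2 change at the 12th and 6.11% at the first restreaking. One probe set cannot show whether the signal comes from an intact or a shortened HIS3, and which allele the spores carry was not tested. The S. pombe gene his5, which serves as a stand-in for HIS3 in some yeast deletion cassettes, lay at or under the background limit on all 10 arrays, and the labels do not name the cassette.

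HIS5 (YIL116W) encodes the aminotransferase that adds the amino group. It read 2377, 2317 and 2180.0 at the 12th restreaking and 2777, 2481, 2639 and 2299 at the first, against 1295, 1267 and 1313 in wild type. The deletion arrays were all above the wild type, and those of the first restreaking were spread more widely than those of the 12th. HIS5 was 1.76-fold higher at the 12th restreaking (log2 change 0.82 ± 0.0613 SE, limma adjusted p = 2.86e-08) and 1.96-fold higher at the first (0.97 ± 0.0573 SE, adjusted p = 2.09e-09). A larger log2 change was found for 12.9% of genes at the 12th and 10.7% at the first restreaking.

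HIS2 (YFR025C) encodes histidinol phosphatase, which acts before the HIS4 enzyme ends the pathway. It read 1379, 1279.5 and 1239.9 at the 12th restreaking and 1339, 1261, 1267 and 1274 at the first, against 620.5, 619 and 630.2 in wild type. The wild-type arrays hardly differed and the deletion arrays stood clear of them. HIS2 was 2.06-fold higher at the 12th restreaking (log2 change 1.04 ± 0.0498 SE, limma adjusted p = 3.26e-10) and 2.04-fold higher at the first (1.03 ± 0.0465 SE, adjusted p = 1.48e-10). A larger log2 change was found for 9.19% of genes at the 12th and 9.93% at the first restreaking.

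**Figure D2:**
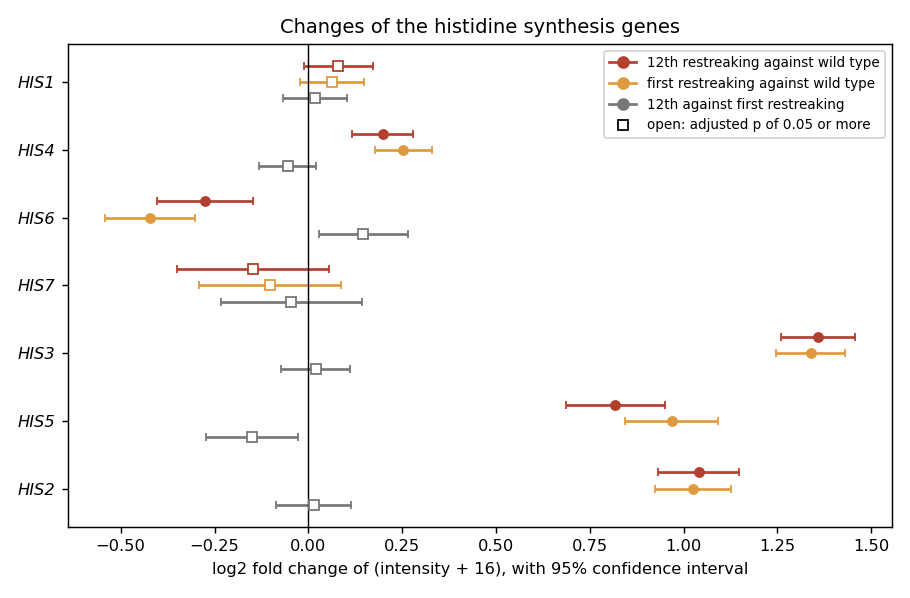
Log2 fold changes of HIS1 to HIS7 with 95% confidence intervals from limma, for the 12th restreaking against wild type, the first restreaking against wild type, and the 12th against the first restreaking; open symbols have an adjusted p of 0.05 or more. HIS3, HIS2 and HIS5 lie between 0.82 and 1.36 on the log2 scale against wild type, HIS6 lies below 0, and every value for the 12th against the first restreaking is open.

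The 7 genes thus did not move as a block. Beside the median log2 change of 0.03 over all genes in either comparison, the median over the 7 was 0.20 at the 12th and 0.25 at the first restreaking. That median depended on the scaling, with 0.08 and 0.14 when array medians were set equal and 0.41 and 0.39 under quantile normalization. At 1.5-fold, a line drawn after the values were seen, HIS2, HIS3 and HIS5 were higher at both restreakings, beside 19.9% of all genes at the 12th and 20.7% at the first. These 3 genes encode consecutive late steps of the pathway, while HIS1 at its entry and HIS7 at the branch to AICAR were not called. One of the 3 is HIS3, whose allele the labels do not give. Over the 6 genes other than HIS3 the median log2 change was 0.14 at the 12th and 0.16 at the first restreaking. The groups did not overlap for HIS2, HIS3, HIS4, HIS5 and HIS6 in either comparison, beside 79.8% of all genes at the 12th and 76.7% at the first restreaking.

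**Figure D3:**
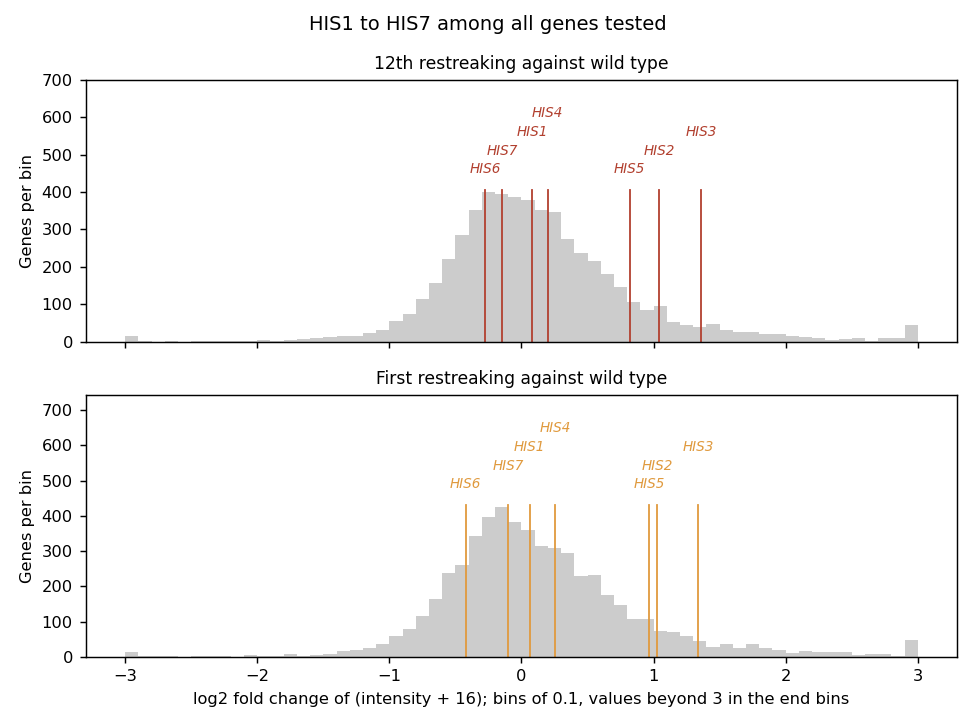
Number of genes per bin of log2 fold change against wild type for all 5449 genes (grey), with HIS1 to HIS7 marked as lines, for the 12th (top) and the first restreaking (bottom). HIS3, HIS2 and HIS5 lie in the right shoulder of the distribution, where 5.76% to 12.9% of genes had larger changes. HIS6 lies left of its centre, with 27.8% of genes lower at the 12th and 18.5% at the first restreaking. HIS1, HIS4 and HIS7 lie nearer the centre.

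No HIS gene was called between the 12th and the first restreaking. In limma 0 of the 7 passed, beside 15.9% of all genes, and at an unadjusted p under 0.05 there were 2 of 7, HIS5 and HIS6, beside 30.5% of all genes. The order of the group levels from high to low was first restreaking, 12th restreaking, wild type for HIS4 and HIS5. It was 12th restreaking, first restreaking, wild type for HIS1, HIS2 and HIS3. For HIS6 and HIS7 the wild type was highest, and the deletion groups followed as 12th and first for HIS6 and as first and 12th for HIS7. The arrays of both groups overlapped for all 7 genes, beside 28.9% of all genes whose groups did not overlap. In none of these orders did the neighbouring deletion groups differ past the threshold, nor did HIS1 or HIS7 between wild type and its neighbour.

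The ratio of the 12th to the first restreaking was 1.01 for HIS2 (95% interval 0.942 to 1.08, limma adjusted p = 0.865), 1.01 for HIS3 (0.951 to 1.08, adjusted p = 0.793) and 1.01 for HIS1 (0.954 to 1.07, adjusted p = 0.805). The ratio was 0.963 for HIS4 (adjusted p = 0.317) and 0.969 for HIS7 (0.851 to 1.10, adjusted p = 0.766). HIS5 had a ratio of 0.901 (0.827 to 0.982, adjusted p = 0.0925) and HIS6 one of 1.11 (1.02 to 1.20, adjusted p = 0.0884). Both ratios lay on the side of wild type. HIS5 passed without first-restreaking replicate 4 (log2 change -0.20, adjusted p = 0.0247) and HIS6 without first-restreaking replicate 3 (0.19, adjusted p = 0.0462), so single arrays decided both calls.

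The spread within groups differed from gene to gene. The SD of log2 values at the 12th restreaking was 0.017 for HIS4, the lowest, and 0.0986 for HIS7, the highest, beside a median of 0.058 over all genes. At the first restreaking it was 0.0324 for HIS1, the lowest, and 0.117 for HIS5, the highest, beside 0.0765. In wild type the range was 0.0112 for HIS6 to 0.216 for HIS7, beside 0.0753. There HIS2 (0.0135), HIS5 (0.0256) and HIS6 lay well under that median and HIS7 well above it. First-restreaking replicate 1 was the lowest array of its group for HIS1, HIS3, HIS4 and HIS7 and the highest for HIS2 and HIS5.

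Over the 10 arrays HIS2, HIS3 and HIS5 shared the step between wild type and the deletion groups, which the r values below largely restate. Within the first restreaking they did not run together, since replicate 1 was the highest array for HIS2 and HIS5 and the lowest for HIS3. As a description, with the 3 groups as shared structure and no p, Pearson's r of the log2 values was 0.992 for HIS2 and HIS3, 0.979 for HIS2 and HIS5 and 0.966 for HIS3 and HIS5. HIS4 went with these genes too, with r of 0.909 to HIS2, 0.936 to HIS3 and 0.928 to HIS5. HIS6 ran opposite, with r of -0.892 to HIS2, -0.889 to HIS3, -0.885 to HIS4 and -0.919 to HIS5. Among 5288 genes above background on every array, those most like HIS3 were STE2 (r = 0.999), the receptor gene that marks mating type a, and QDR3 (r = 0.998), a multidrug transporter gene. The genes most like HIS2 were MET16 (r = 0.998), a sulfate assimilation gene, and AHC1 (r = 0.997), and those most like HIS5 were AAD3 and PXA2 (r = 0.994 each). HIS4 was most like ERV14 (r = 0.976) and CRF1 (r = 0.975), and HIS6 was most like PFY1, the profilin gene (r = 0.984), and PHS1 (r = 0.981). HIS1 and HIS7 had looser company, with MDS3 (r = 0.846) and OXA1 (r = 0.834) for HIS1 and HAC1 (r = 0.872) and TIF6 (r = 0.857) for HIS7. For the mean of the genes other than HIS3 the closest 5 were NIT1 (r = 0.991), YSP3 (r = 0.989), GAT2 (r = 0.988), ATR1 (r = 0.987) and MDV1 (r = 0.986). ATR1 is known for resistance to aminotriazole, an inhibitor of the HIS3 enzyme.

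The 7 genes lie on 6 chromosomes. MRM1 (YOR201C), which encodes a mitochondrial rRNA methyltransferase, lies beside HIS3 and is transcribed away from it. It read 653, 663 and 677 at the 12th restreaking and 709.9, 634, 663 and 681 at the first, against 360.5, 357 and 380.1 in wild type. MRM1 was 1.78-fold higher at the 12th (limma adjusted p = 8.29e-09) and 1.80-fold higher at the first restreaking (adjusted p = 2.84e-09), the direction of HIS3. On the other side, DED1, an RNA helicase gene, averaged 3128 ± 46.7 (SD, n = 3) at the 12th and 3175 ± 219 (n = 4) at the first restreaking, against 3464 ± 264 (n = 3) in wild type. It was 1.10-fold lower at the 12th restreaking (adjusted p = 0.0454) and not called at the first (adjusted p = 0.0604). At the 12th restreaking the call of DED1 was lost without first-restreaking replicate 3 or 4, or wild-type replicate 1 or 2. Leaving out any 1 of the 12th-restreaking arrays lost it too (adjusted p of 0.0518 to 0.16 in all these fits). It was also lost under quantile normalization (log2 change -0.02, adjusted p = 0.718), without the variance trend (0.077) and with the replicate number as a block (0.287). At the first restreaking the call was gained without first-restreaking replicate 2 (adjusted p = 0.0112) or wild-type replicate 3 (adjusted p = 0.00788). There it was also gained with first-restreaking replicates 3 and 4 only (0.0376) and with array medians set equal (log2 change -0.24, adjusted p = 0.0035).

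The neighbours of the other HIS genes were looked up after the values of MRM1 were known. Of the 14 neighbours of all 7 HIS genes, MRM1 and DED1 included, 13 were measured, and they showed no common direction. At the 12th restreaking 4 were higher and 7 lower than in wild type, and at the first restreaking 4 were higher and 6 lower. Over all genes 40.9% were higher and 36.9% lower at the 12th, and 41.5% and 37.5% at the first. GIP2, beside HIS1, averaged 441 ± 26.2 (SD, n = 3) at the 12th and 366 ± 71.2 (n = 4) at the first restreaking, against 42.6 ± 12.1 (n = 3) in wild type. That is 7.90-fold and 6.52-fold higher (limma adjusted p = 5.96e-10 and 6.38e-10), while HIS1 itself was not called. ARO4, an aromatic amino acid synthesis gene beside HIS7, was 1.51-fold and 1.53-fold higher (adjusted p = 6.06e-09 and 1.84e-09). RRP7 and BIK1, on either side of HIS4, were not called. RPB3 and FAF1, on either side of HIS6, were lower as HIS6 was, RPB3 by 1.51-fold and 1.52-fold and FAF1 by 1.26-fold and 1.22-fold.

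Of 6 regulators of HIS transcription, 2 were higher at both restreakings, and 4 were lower at the 12th and 3 at the first. Beside them stand 40.9% of all genes higher and 36.9% lower at the 12th, and 41.5% and 37.5% at the first. GCN4, the activator of the general amino acid control, which is regulated mainly at translation, averaged 5470.2 ± 116 (SD, n = 3) at the 12th and 5785 ± 227 (n = 4) at the first restreaking, against 4578 ± 55.4 (n = 3) in wild type. Its RNA was 1.19-fold higher at the 12th (limma adjusted p = 3.1e-05) and 1.26-fold higher at the first restreaking (adjusted p = 9.71e-07). GCN2, the kinase gene, was 1.42-fold lower at the 12th (adjusted p = 5.86e-06) and 1.33-fold lower at the first (adjusted p = 2.03e-05). ABF1, a general regulatory factor, averaged 387 ± 19.3 at the 12th and 471 ± 21.3 at the first restreaking, against 847 ± 27.0 in wild type, 2.14-fold and 1.77-fold lower (adjusted p = 9.04e-10 and 6.81e-09). RAP1, whose protein binds the HIS4 promoter, was 1.30-fold lower at both (adjusted p = 0.000113 and 6.73e-05).

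BAS1 averaged 653 ± 47.1 (SD, n = 3) at the 12th and 638 ± 30.5 (n = 4) at the first restreaking, against 576 ± 11.6 (n = 3) in wild type. Its partner PHO2 averaged 361 ± 16.7 and 375 ± 26.8, against 418 ± 27.1 in wild type. BAS1 was 1.13-fold higher at the 12th (limma adjusted p = 0.0182) and 1.10-fold higher at the first restreaking (adjusted p = 0.0349), calls lost with array medians set equal (adjusted p = 0.374 and 0.638) and under quantile normalization (0.361 and 0.600). They were also lost without wild-type replicate 1 (adjusted p = 0.0566 and 0.101), and that at the 12th without 12th-restreaking replicate 2 (0.106). The call at the first was lost without first-restreaking replicate 1 (0.0737) or 2 (0.0922) or wild-type replicate 2 (0.0556) or 3 (0.0541). A block on the replicate number lost both calls (0.057 and 0.0651). First-restreaking replicates 3 and 4 alone lost that at the first (0.245). PHO2 was 1.15-fold lower at the 12th restreaking (adjusted p = 0.0191), lost without 12th-restreaking replicate 3 (0.0788) or wild-type replicate 2 (0.0845). At the first restreaking it missed the threshold (adjusted p = 0.0527) and passed without first-restreaking replicate 1 (0.0178) or wild-type replicate 1 (0.0486). There PHO2 was also called lower with array medians set equal (log2 change -0.26, adjusted p = 0.00255) and under quantile normalization (-0.36, adjusted p = 0.000197). It passed too without the variance trend (0.0473), with the replicate number as a block (0.0324) and with first-restreaking replicates 3 and 4 only (0.011).

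At the entry of the pathway, the PRPP synthetases, 2 of 5 were lower at both restreakings and none was higher in limma. The shares over all genes were 36.9% lower and 40.9% higher at the 12th, and 37.5% and 41.5% at the first. PRS4 was 1.48-fold lower at the 12th and 1.58-fold lower at the first restreaking (limma adjusted p = 4.47e-08 and 4.04e-09), and PRS5 was 1.32-fold and 1.22-fold lower (1.89e-06 and 2.38e-05). PRS2 averaged 723 ± 37.7 at the 12th and 632 ± 96.4 at the first restreaking, against 714 ± 17.5 in wild type, and was not called. At the first restreaking PRS2 passed as lower without first-restreaking replicate 3 (adjusted p = 0.0162). PRS3 did so without that array (0.0423) or wild-type replicate 1 (0.0238), and PRS1 passed as higher without first-restreaking replicate 1 (0.023). With first-restreaking replicates 1 and 2 only, PRS2 (0.0016) and PRS3 (0.0436) passed as lower. With replicates 3 and 4 only, PRS1 passed as higher (0.0271). The counts depended on the scaling: with array medians set equal 3 were lower at the 12th and 4 at the first restreaking, and under quantile normalization PRS1 was called higher (adjusted p = 0.001 and 0.000853).

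Of 5 genes of AICAR use and the adenylate branch, 4 were lower at both restreakings, beside 36.9% of all genes at the 12th and 37.5% at the first. Of the 5, ADE16 and ADE17 act on AICAR, the by-product of the HIS7 step. ADE17, which encodes the enzyme that takes AICAR on to IMP, read 1565, 1697 and 1664 at the 12th restreaking and 1432, 1081, 1302 and 1179 at the first, against 4762, 5240.3 and 4943 in wild type. It was 3.01-fold lower at the 12th (limma adjusted p = 5.92e-10) and 3.97-fold lower at the first (adjusted p = 2.64e-11). Its isozyme gene ADE16 was 1.25-fold and 1.21-fold lower, ADE13 was 1.62-fold and 1.79-fold lower, and AMD1, the AMP deaminase gene, was 1.42-fold and 1.34-fold lower. ADE12 was 1.10-fold higher at the first restreaking (adjusted p = 0.0111), a call lost with array medians set equal (0.610) and without wild-type replicate 1 (0.079). At the 12th restreaking it was not called (adjusted p = 0.176), except under quantile normalization (adjusted p = 0.000997).

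Of 13 measured targets of Bas1 and Pho2 other than the HIS genes, 3 were higher and 8 lower at each restreaking. The higher genes were not all the same, since ADE12 was called higher at the first restreaking only. The median log2 change was -0.54 at the 12th and -0.58 at the first. Among all genes 40.9% were higher and 36.9% lower at the 12th, and 41.5% and 37.5% at the first. ADE17, ADE12 and ADE13 are also counted in the list above. ADE2 averaged 1681 ± 57.3 (SD, n = 3) at the 12th and 1434 ± 27.0 (n = 4) at the first restreaking, against 3389 ± 87.0 (n = 3) in wild type, 2.01-fold and 2.35-fold lower (limma adjusted p = 7.8e-11 and 4.16e-12). ADE1 was 1.45-fold and 1.67-fold lower (adjusted p = 1.24e-08 and 2.07e-10). With array medians set equal 1 of the 13 was higher and 8 were lower at both restreakings, and under quantile normalization 4 were higher at the 12th and 5 at the first, with 8 lower at both.

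The genes for synthesis of other amino acids, many of them targets of Gcn4, were mostly higher. Of 42 measured, 29 were higher and 7 lower at the 12th restreaking and 34 higher and 4 lower at the first, beside 40.9% and 41.5% of all genes higher. Their median log2 change was 0.38 at the 12th and 0.49 at the first restreaking, beside 0.20 and 0.25 for the 7 HIS genes and 0.03 for all genes. Genes of arginine synthesis led. ARG1 averaged 4206 ± 88.4 (SD, n = 3) at the 12th and 4661 ± 203 (n = 4) at the first restreaking, against 290.2 ± 29.9 (n = 3) in wild type, 13.8-fold and 15.3-fold higher (limma adjusted p = 7.05e-15 and 1.87e-15). ARG3 was 6.99-fold and 9.92-fold higher, ARG7 4.57-fold and 4.70-fold, and CPA1 2.86-fold and 3.19-fold. With array medians set equal the counts were 26 higher and 9 lower at the 12th and 30 higher and 6 lower at the first restreaking.

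**Figure D4:**
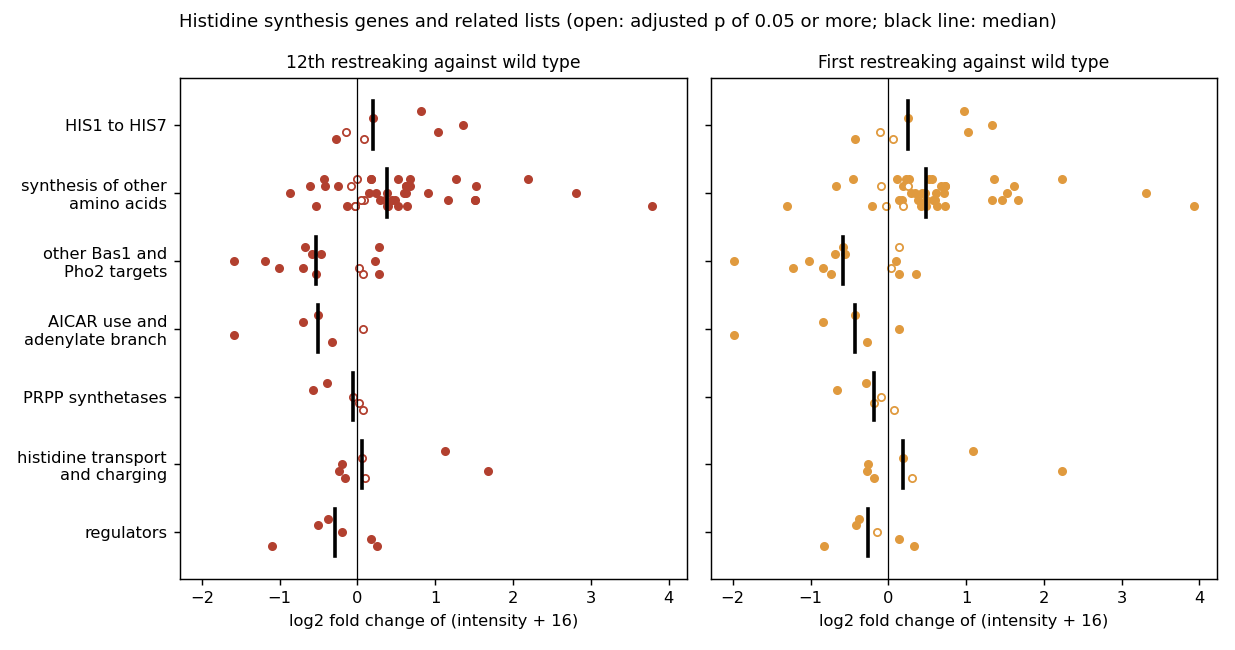
Log2 fold changes against wild type of HIS1 to HIS7 and of 6 lists of related genes, for the 12th restreaking (left) and the first restreaking (right); each point is a gene, open points have an adjusted p of 0.05 or more, and black lines are medians. In the scaling used here the medians for HIS1 to HIS7 (0.20 and 0.25) lie between those of other amino acid synthesis (0.38 and 0.49) and of other Bas1 and Pho2 targets (-0.54 and -0.58).

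Genes that bring in, store or charge histidine went both ways. Of 7, 2 were higher and 3 lower at the 12th restreaking and 3 higher and 3 lower at the first. These counts stand beside 40.9% of all genes higher and 36.9% lower at the 12th, and 41.5% and 37.5% at the first. HIP1, the histidine permease gene, averaged 1075 ± 20.5 (SD, n = 3) at the 12th and 1066 ± 45.8 (n = 4) at the first restreaking, against 1210.1 ± 97.2 (n = 3) in wild type, 1.12-fold and 1.13-fold lower (limma adjusted p = 0.0204 and 0.00919). At the 12th restreaking that call was lost without 12th-restreaking replicate 2 (0.0648) or wild-type replicate 1 (0.0521) or 3 (0.107), and at the first without wild-type replicate 3 (0.0618). A block on the replicate number lost it at the 12th (0.0753), and first-restreaking replicates 3 and 4 alone lost it at the first (0.0827). GAP1, the general amino acid permease gene, read 648, 594 and 619 at the 12th restreaking and 907, 808, 1074 and 907 at the first, against 203, 166 and 181 in wild type. It was 3.20-fold and 4.71-fold higher (adjusted p = 1.21e-09 and 2.97e-11). VBA2, a vacuolar transporter gene for basic amino acids, was 2.18-fold and 2.12-fold higher, and AVT1 was 1.15-fold and 1.20-fold lower. VBA1 was 1.14-fold higher at the first restreaking, a call lost with array medians set equal (adjusted p = 0.153), and was not called at the 12th. VBA3 lay near the background limits and was not called, but passed at the first restreaking without first-restreaking replicate 4 (adjusted p = 0.0324) or wild-type replicate 1 (0.0298). It also passed there without the variance trend (0.0351) and with the replicate number as a block (0.0207). HTS1, which encodes histidyl-tRNA synthetase, was 1.18-fold and 1.21-fold lower (adjusted p = 0.00038 and 5.15e-05).

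Between the 12th and the first restreaking, some related genes were called while none of the 7 HIS genes was. This comparison sets the 12th-restreaking arrays, all low for LYS2 and MET17, against first-restreaking arrays that were split for both genes. GAP1 was 1.47-fold lower (log2 change -0.56, limma adjusted p = 0.00188), ARG3 had a log2 change of -0.51 and ABF1 of -0.27 (adjusted p = 0.00699). ADE17 had a log2 change of 0.40 (adjusted p = 0.0057). Of other amino acid synthesis 1 gene was higher and 9 were lower, and of the Bas1 and Pho2 targets 4 were higher and 0 lower, beside 6.83% of all genes higher and 9.07% lower.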

How the data were processed

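Biotin-labelled RNA of 10 cultures was measured on Affymetrix arrays, 1 per culture, per the labels. The authors deposited an intensity on a linear scale for each probe set. Which software made it is not given in the sources used. The values show that arrays had been scaled to a common trimmed mean (499.8 to 499.9, leaving out the extremes), which assumes equal mean signal in the strains. Medians over all 10928 probe sets were 89.7 to 93.3 at the 12th and 97.0 to 104 at the first restreaking, against 60.6 to 64.0 in wild type. Medians over the tested genes were 602 to 666.

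Symbols came from the platform annotation, updated to the R64 RefSeq gene table, which also gave neighbours. No coordinates are given, since the files name no build. Of several probe sets for a gene (47 genes) the brightest was used. The background limit of an array, 10.8 to 17.5, was percentile 95 of its 1746 S. pombe probe sets, and 97.7% to 99.1% of tested genes lay above it. Log2 of intensity (floored at 0) plus 16 was tested with limma 3.58.1 in R 4.3.3, as lmFit on the 10 arrays with a mean for each group, and eBayes with an intensity trend, two-sided, with Benjamini-Hochberg adjustment over 5449 genes and a threshold of 0.05. Folds are on that scale. The code was tested on simulated data.

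The 7 genes and the lists were chosen with earlier results of these data known. Named are the 7 genes, SUA5, the regulators, PRPP synthetases, AICAR genes, transport and charging genes, strain and mating type markers, HIS3 neighbours, up to 4 genes with the smallest adjusted p of the larger lists, and the genes of highest r (2 per gene, 5 for the mean). ADE5,7, ARG5,6 and TRP1 were not matched by name. Alternatives were the added constant, scaling, filter, probe set rule, variance trend, groups in the fit, replicate number as a block, and each array left out. Same-numbered arrays of the 12th and first restreaking did not deviate together (r = -0.271, 0.0797 and -0.193), so the numbers were not taken as pairs.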

Additional observations from a re-analysis of the deposited data

Results flagged for a closer look

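In groups of 4 arrays, a value standing far from the rest is found by chance in about 1 group in 20. Of the 51 genes that the naming rule gives, those of like pattern left out, 5 had such a value at the first restreaking. HIS2 had 1339 on replicate 1, with the next highest at 1274, and HIS6 had 449.8 on replicate 3, with the next at 407. HIS7 had its lowest value, 911, on replicate 1, with the next at 1042. PRS1 had its lowest, 2763, on replicate 1 (next 3039), and ADE1 had 2112 on replicate 2 (next 2186).

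The change against wild type differed between the 12th and the first restreaking, in limma's test of that difference, for 9 of the same 51 genes and for none of HIS1 to HIS7, beside 15.9% of all genes. The log2 difference was negative for ABF1 (-0.27), GAP1 (-0.56), ARG3 (-0.51), CPA1 (-0.16) and STE3 (-0.33), and positive for ADE17 (0.40), ADE13 (0.14), ADE2 (0.23) and ADE1 (0.20). ADE13 lost its call without first-restreaking replicate 1 (adjusted p = 0.0665) or 2 (0.0669) or 12th-restreaking replicate 1 (0.151) or 3 (0.0839). STE3 lost it without first-restreaking replicate 3 (0.0813) or 4 (0.0787) or any 1 of the 12th-restreaking arrays (0.059 to 0.141). Both calls were also lost without the variance trend (0.0716 for ADE13 and 0.0522 for STE3) and with the replicate number as a block (0.115 and 0.148). With only the compared groups in the fit they were lost too (0.0601 and 0.0639). Array medians set equal lost that of ADE13 (0.0578), and quantile normalization that of STE3 (0.0715).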

How the results depend on the processing

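HIS2, HIS3, HIS5 and HIS6 kept their direction and call against wild type under all alternatives run. Against wild type, 5 to 6 of the 7 HIS genes were called when an array was left out, and 4030 to 4275 genes at the 12th and 4185 to 4307 at the first restreaking. Between the 12th and the first restreaking these ranges were 0 to 1 HIS gene and 267 to 921 genes, with 544, 375 and 267 genes without 12th-restreaking replicates 1, 2 and 3. With the replicate number as a block, 414 genes were called there, against 866 without it, and 1 HIS gene, HIS5 (log2 change -0.20, adjusted p = 0.0488). First-restreaking replicate 4 and wild-type replicate 1 were each alone in a block, so they did not weigh on the group differences of that fit. Its HIS5 change is the one found without first-restreaking replicate 4, not a separate result. The block also called HIS1 at the 12th restreaking (0.13, adjusted p = 0.0471). With first-restreaking replicates 1 and 2 only, 1 HIS gene, HIS5, was called between the restreakings (adjusted p = 0.04), and the LYS2 change against wild type turned to -0.033. Quantile normalization called HIS1 higher (0.21, adjusted p = 0.000302, and 0.20, adjusted p = 0.000249). Array medians set equal moved the median of all genes by -0.111 at the 12th and -0.109 at the first restreaking, and quantile normalization by -0.102 and -0.103. HIS1 and HIS4 went down under the first and up under the second (HIS4 to 0.41 at the 12th and 0.39 at the first restreaking). The share of called genes that were higher was 52.6% at the 12th and 52.5% at the first restreaking, 44.1% and 44.2% with medians set equal, and 43.8% and 42.9% under quantile normalization. The cause of these shifts was not tested.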

Other observations

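The arrays also carry probe sets for Schizosaccharomyces pombe, among them 6 for its own histidine genes, which are not matched to the S. cerevisiae genes by number. Those for his1, his3 and his5 were above the background limit on 0 of 10 arrays, those for his2 and his7 on 1, and that for his4 on 2. Of the 2 other strain markers, URA3 lay under the limits on every array. LEU2 was low but above them on the wild-type arrays (14.0, 40.6 and 25.6). In limma LEU2 was not called against wild type. It was called lower under quantile normalization (adjusted p = 0.0491 at the 12th and 0.0152 at the first restreaking) and without wild-type replicate 1 (0.0462 and 0.0332). At the first restreaking it was also called without first-restreaking replicate 2 (0.0244). LEU2 averaged 13.2 ± 7.69 (SD, n = 3) at the 12th and 13.6 ± 10.8 (n = 4) at the first restreaking, against 26.7 ± 13.3 (n = 3) in wild type, and URA3 averaged 5.25 ± 4.16 and 6.36 ± 0.783, against 2.32 ± 1.14 in wild type.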
